A study of Mus musculus with 4 samples.

Results

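Transcripts of 9 genes of tissue macrophages were followed in mouse bone marrow libraries labelled as Lsk cells: the haem and iron recycling genes Hmox1, Slc40a1, Cd163 and Slc11a1, the transcription factor gene Spic, the adhesion gene Vcam1, and the complement genes C1qa, C1qb and C1qc. They were chosen by function from the 55399 genes listed in the count table, with their values in these same libraries and the genotype difference of related macrophage genes already known. Their genotype differences are therefore given as a description, without p-values. How many of them each fit across all genes called is counted once, beside the share of all genes it called, and is not independent evidence. All 9 had enough reads to be among the 16393 genes tested. Bulk RNA-seq covered 4 libraries, 2 labelled Ppm1bCKO, a conditional knockout of the phosphatase gene Ppm1b, and 2 labelled Ppm1bfl/fl, in which loxP sites flank the alleles. The labels name no Cre line, strain, age, sex or pooling of mice. Nothing in the labels says that replicates came from separate mice, so the spread between them may be technical. The series title places the comparison in the self-renewal of haematopoietic stem cells and the Wnt/β-catenin pathway.

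Marrow macrophages sit at the centre of erythroblastic islands, where they hold maturing erythroblasts, engulf expelled nuclei and take up worn red cells. Haem from those cells is opened by haem oxygenase 1 (Hmox1), and the iron leaves the cell through ferroportin (Slc40a1). Spi-C is a transcription factor needed for red pulp macrophages of the spleen and for some marrow macrophages in mice. Haem promotes Spic expression by driving breakdown of the repressor Bach1, which also represses Hmox1 and Slc40a1. C1q, the recognition subunit of the classical complement pathway, is built from 3 kinds of chain, and resident macrophages are a main source of it. In bulk samples, fewer macrophages, less RNA per macrophage and a change in other cells that express the same genes cannot be told apart.

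Of the 9 genes, 5 had a promoter sequence in the RefSeq table for GRCm38.p6, the assembly also called mm10, each running from 250 bases before to 50 bases after a transcription start. C1qb, C1qc and Spic are shown because each holds the letters AGGAAGT, the ETS core bound by PU.1 and the related Spi-C, read on the opposite strand as ACTTCCT. Capitals mark that match, and each sequence is written 5′ to 3′ along the gene, which lies on the minus strand. C1qb lies at chr4:136886151-136886450, C1qc at chr4:136892865-136893164 and Spic at chr10:88682974-88683273. The Spic window lies inside the counted gene, whose 5′ end is at 88685015, so it belongs to an internal start. The windows of C1qb and C1qc span the 5′ ends of those genes.
C1qb: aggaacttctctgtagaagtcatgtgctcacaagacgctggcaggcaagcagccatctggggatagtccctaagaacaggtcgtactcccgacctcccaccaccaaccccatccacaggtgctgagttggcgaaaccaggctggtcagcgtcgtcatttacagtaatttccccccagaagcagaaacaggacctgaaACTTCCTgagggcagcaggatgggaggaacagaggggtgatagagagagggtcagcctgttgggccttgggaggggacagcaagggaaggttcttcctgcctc
C1qc: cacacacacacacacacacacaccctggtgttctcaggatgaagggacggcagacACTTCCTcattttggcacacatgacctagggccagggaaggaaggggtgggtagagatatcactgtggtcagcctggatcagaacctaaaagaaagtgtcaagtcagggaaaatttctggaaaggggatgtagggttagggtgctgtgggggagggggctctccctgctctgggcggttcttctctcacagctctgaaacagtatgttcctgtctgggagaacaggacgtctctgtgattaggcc
Spic: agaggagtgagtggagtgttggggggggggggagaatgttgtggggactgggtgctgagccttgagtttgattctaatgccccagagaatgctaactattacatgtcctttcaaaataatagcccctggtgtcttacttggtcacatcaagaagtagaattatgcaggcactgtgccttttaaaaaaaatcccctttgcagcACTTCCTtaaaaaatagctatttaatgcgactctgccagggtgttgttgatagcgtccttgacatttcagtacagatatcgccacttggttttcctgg
The match began 53 bases before the start in C1qb, 195 in C1qc and 48 in Spic. Both other windows, those of Cd163 and Slc11a1, did not hold these letters. AGGAAGT on either strand was in 9.35% of all 32851 promoters of that length. The Maf half-site TGCTGA was in the windows of C1qb and Spic and in 19.5% of all promoters. The antioxidant response core TGACNNNGC was in C1qb alone of the 5 and in 12.4% of all promoters. Neither the E-box CACGTG (7.15% of all promoters) nor the TATA box TATAAA (13.6%) was in any of the 5. All of these were searched on both strands, after the sequences had been read. AGGAAGT shares no position with the other motifs in the printed windows, and a match of letters is not a binding site.

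Total counts were 22393973 and 24856083 in the Ppm1bCKO libraries and 26002277 and 30045382 in the Ppm1bfl/fl libraries. Levels below are CPM, reads scaled to library size, after TMM normalisation, and a log2 fold change is Ppm1bCKO over Ppm1bfl/fl with its standard error from edgeR. Ppm1b itself had 84.3 and 121 CPM where the label says Ppm1bCKO, against 80.7 and 82.5 CPM in Ppm1bfl/fl. Its log2 fold change was 0.33 ± 0.20, so its count per gene was not lower in the libraries labelled as knockout. Counts per gene may miss a deletion of single exons, and the genotypes are those of the labels. Kit ran from 121 to 228 CPM and Ly6a, which encodes Sca-1, from 17.7 to 22.2 CPM, while the haemoglobin gene Hbb-bs reached 2783 to 7038 CPM. Transcripts of mature cells were thus present in libraries labelled as Lsk. Ppm1bCKO replicate 2 had a trend with gene length: against Ppm1bCKO replicate 1 its levels had a median log2 difference of 0.33 over genes of 1 to 2 kb and -0.25 over genes of 8 to 10 kb. Between the Ppm1bfl/fl replicates these medians were 0.02 and -0.03.

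The haem and iron genes were lower in both Ppm1bCKO libraries, most of all Hmox1. Hmox1 (chr8:75093621-75100589 in mm10, plus strand), the enzyme that opens the haem ring and frees its iron, stood at 85.1 and 121 CPM in the Ppm1bCKO libraries, against 209 and 197 CPM in the Ppm1bfl/fl libraries. Both Ppm1bCKO values lay far below both Ppm1bfl/fl values, and the log2 fold change was -0.98 ± 0.20, a 1.97-fold lower level. Slc40a1 (chr1:45908068-45926523, minus strand), which encodes the iron exporter ferroportin, had 79.2 and 82.7 CPM in Ppm1bCKO, against 125 and 122 CPM in Ppm1bfl/fl. Replicates lay close together in both genotypes, the groups did not overlap, and its log2 fold change was -0.61 ± 0.16. Cd163 (chr6:124304656-124330527, plus strand), the receptor that takes up complexes of haptoglobin and haemoglobin, had 26.4 and 24 CPM in Ppm1bCKO, against 37.3 and 45.3 CPM in Ppm1bfl/fl. Here too the groups were apart, and the log2 fold change was -0.71 ± 0.19. Slc11a1 (chr1:74375195-74386062, plus strand) encodes NRAMP1, a metal transporter of the phagosome membrane that recovers iron from engulfed red cells and that neutrophils and monocytes also express. It stood at 22.6 and 22.1 CPM in Ppm1bCKO, against 25.7 and 30.2 CPM in Ppm1bfl/fl. The groups did not overlap, but the gap between the nearest libraries was smaller than that between the Ppm1bfl/fl replicates, and the log2 fold change was -0.32 ± 0.19.

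Spic and Vcam1 were lower mainly in Ppm1bCKO replicate 1. Spic (chr10:88674772-88685015, minus strand), with the fewest reads of the 9, 153 to 400 per library, stood at 6.73 and 10.5 CPM in Ppm1bCKO, against 11.5 and 13.3 CPM in Ppm1bfl/fl. Its second Ppm1bCKO library was close to the Ppm1bfl/fl libraries, and its log2 fold change was -0.52 ± 0.27. Vcam1 (chr3:116109949-116129688, minus strand), an adhesion molecule through which island macrophages hold erythroblasts and which stromal and endothelial cells also carry, had 110 and 141 CPM in Ppm1bCKO, against 145 and 156 CPM in Ppm1bfl/fl. Ppm1bCKO replicate 2 again lay close to the Ppm1bfl/fl libraries, and the log2 fold change was -0.26 ± 0.18. Without Ppm1bCKO replicate 1 the log2 fold changes of Spic and Vcam1 were -0.24 and -0.10, and without replicate 2 they were -0.88 and -0.45. The only listed gene that overlaps any of the 9 is the antisense gene Gm43109 at Vcam1, with 1 to 4 reads per library.

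**Figure D1:**
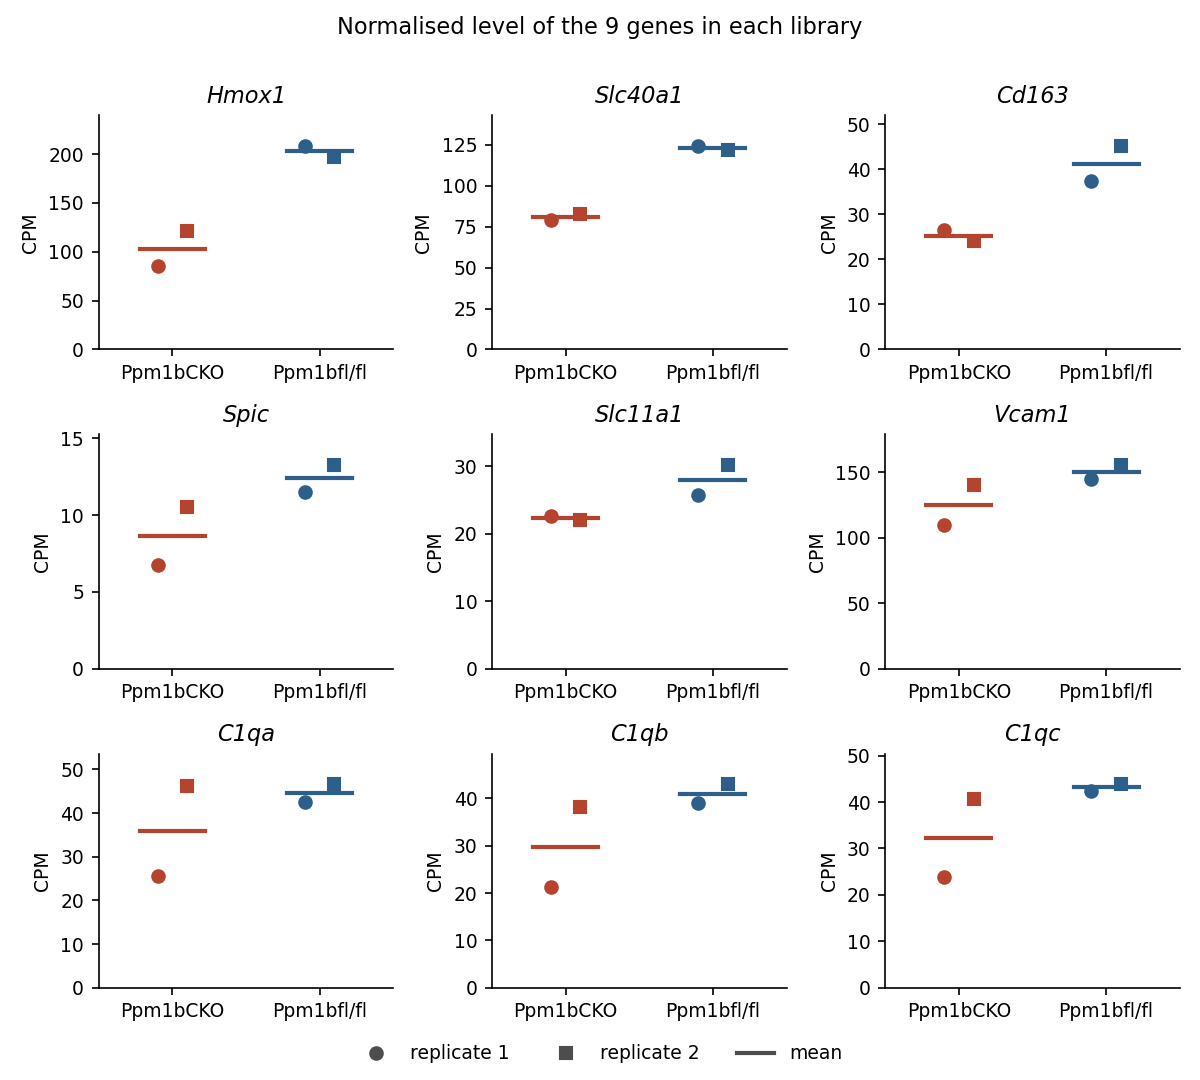
Normalised CPM (linear axis from 0) of the 9 genes in each library; circles are replicate 1, squares replicate 2 and bars the mean of 2 libraries. Hmox1, Slc40a1 and Cd163 were low in both Ppm1bCKO libraries. At these levels, not adjusted for gene length, the C1q genes were clearly low in replicate 1 alone, at 21.3 to 25.7 CPM.

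The C1q genes varied together between libraries, and before any adjustment for gene length only Ppm1bCKO replicate 1 was clearly low. C1qa, which encodes the A chain, had 25.7 and 46.2 CPM in Ppm1bCKO, against 42.5 and 46.7 CPM in Ppm1bfl/fl. The groups overlapped, because Ppm1bCKO replicate 2 lay between the Ppm1bfl/fl libraries, and the log2 fold change was -0.31 ± 0.26. C1qb, for the B chain, had 21.3 and 38.0 CPM in Ppm1bCKO, against 39.0 and 43.0 CPM in Ppm1bfl/fl (log2 fold change -0.47 ± 0.26). C1qc, for the C chain, had 23.8 and 40.7 CPM in Ppm1bCKO, against 42.5 and 43.9 CPM in Ppm1bfl/fl (log2 fold change -0.42 ± 0.25). For both of these the groups just failed to overlap. Without Ppm1bCKO replicate 1 the log2 fold changes of C1qa, C1qb and C1qc were 0.050, -0.11 and -0.088, and without replicate 2 they were -0.80, -0.95 and -0.86. All 3 genes lie within 18.7 kb of the minus strand of chromosome 4 (mm10): C1qb from 136880129 to 136886187, C1qc from 136889804 to 136893065 and C1qa from 136895917 to 136898803.

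The balance of the chains varied little, though the shares of the A and B chains did not overlap between genotypes, a difference that was not tested. Per kb of transcript, the A chain made up 38.6% and 39.3% of the C1q sum in the Ppm1bCKO libraries and 36.5% and 37.1% in the Ppm1bfl/fl libraries. The B chain made up 30.6% and 30.9% in Ppm1bCKO and 32.0% and 32.7% in Ppm1bfl/fl. The C chain took the rest, 29.9% to 31.5% over the 4 libraries. The summed C1q level, by contrast, was 70.8 and 125 CPM in Ppm1bCKO, against 124 and 133 CPM in Ppm1bfl/fl. Reads could not readily be swapped between the chains, since the longest exact run that a pair of their transcripts shared was 15 bases, between C1qb and C1qc. The nearest tested neighbours of the cluster were Ephb2, 44.1 kb away, and Zbtb40, 80.9 kb away on the other side. Neither was called, at log2 fold changes of -0.23 ± 0.37 and -0.21 ± 0.20 and edgeR adjusted p of 0.853 and 0.768.

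All 9 log2 fold changes were negative, with a median of -0.47, against -0.003 over all tested genes, of which 50.4% were negative. Both Ppm1bCKO libraries lay below both Ppm1bfl/fl libraries for 8 of the 9 genes, all but C1qa, as for 20.6% of all tested genes. At a Benjamini-Hochberg adjusted p under 0.05, edgeR's quasi-likelihood test called 0 of the 9, where it called 0.311% of all genes lower. At an unadjusted p under 0.05 edgeR passed 3 of the 9, each lower, as for 3.21% of all genes. limma-voom called 0 of them and DESeq2 1, Hmox1, where DESeq2 called 0.805% of all genes lower. The edgeR count moved with the libraries and settings used. Without Ppm1bCKO replicate 1 it was 3 (Hmox1, Slc40a1 and Cd163), where 9.22% of all genes were called lower. Without Ppm1bCKO replicate 2 it was 4 (Hmox1 and the C1q genes), where 0.367% were. It was 0 without Ppm1bfl/fl replicate 1 and 0 without Ppm1bfl/fl replicate 2, where 0.649% and 0.905% of all genes were called lower. Hmox1 was the 1 gene called with no low-count filter, where 0.638% of all genes were called lower, and also with the replicate block, where 0.83% were. Since the genes were chosen with this contrast in view, these counts support nothing further.

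The 9 genes differed in how far the Ppm1bCKO replicates lay apart, and in length. The C1q genes had exonic lengths of 1.04 to 1.93 kb and stood 1.71-fold to 1.80-fold higher in Ppm1bCKO replicate 2 than in replicate 1. Hmox1, at 1.75 kb, stood 1.42-fold higher there. Slc40a1, at 9000 bases, differed by 1.04-fold, and Cd163 and Slc11a1, at 5.46 and 3.71 kb, were 0.91-fold and 0.98-fold. Vcam1, at 8.87 kb, was 1.28-fold higher in replicate 2 and Spic, at 3.84 kb, 1.57-fold higher. The part of gene length in these differences was not tested.

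With each library's trend with gene length removed, an adjustment chosen after seeing the data, C1qa stood at 26.9 and 38.2 CPM in Ppm1bCKO, against 45.1 and 48.7 CPM in Ppm1bfl/fl. The groups no longer overlapped for C1qa, and the log2 fold changes of C1qa, C1qb and C1qc became -0.52, -0.68 and -0.59. Hmox1 stood at 88.6 and 103 CPM in Ppm1bCKO, against 220 and 206 CPM in Ppm1bfl/fl, and its log2 fold change of -1.15 made it the 1 gene of the 9 called, where 0.262% of all genes were called lower. The long genes came closer to the Ppm1bfl/fl level. Slc40a1 stood at 75.9 and 94.4 CPM in Ppm1bCKO, against 117 and 118 CPM in Ppm1bfl/fl. Vcam1 had 105 and 160 CPM in Ppm1bCKO, against 136 and 150 CPM in Ppm1bfl/fl, so that its groups now overlapped. For 8 of the 9 genes, all but Vcam1, both Ppm1bCKO libraries then lay below both Ppm1bfl/fl libraries, as for 20% of all genes. After the adjustment Ppm1bCKO replicate 1 was still below replicate 2 for Hmox1, Slc40a1, Spic, Vcam1 and the C1q genes. For Slc40a1 and Vcam1 the adjustment widened that gap, from 79.2 and 82.7 CPM and from 110 and 141 CPM before it.

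**Figure D2:**
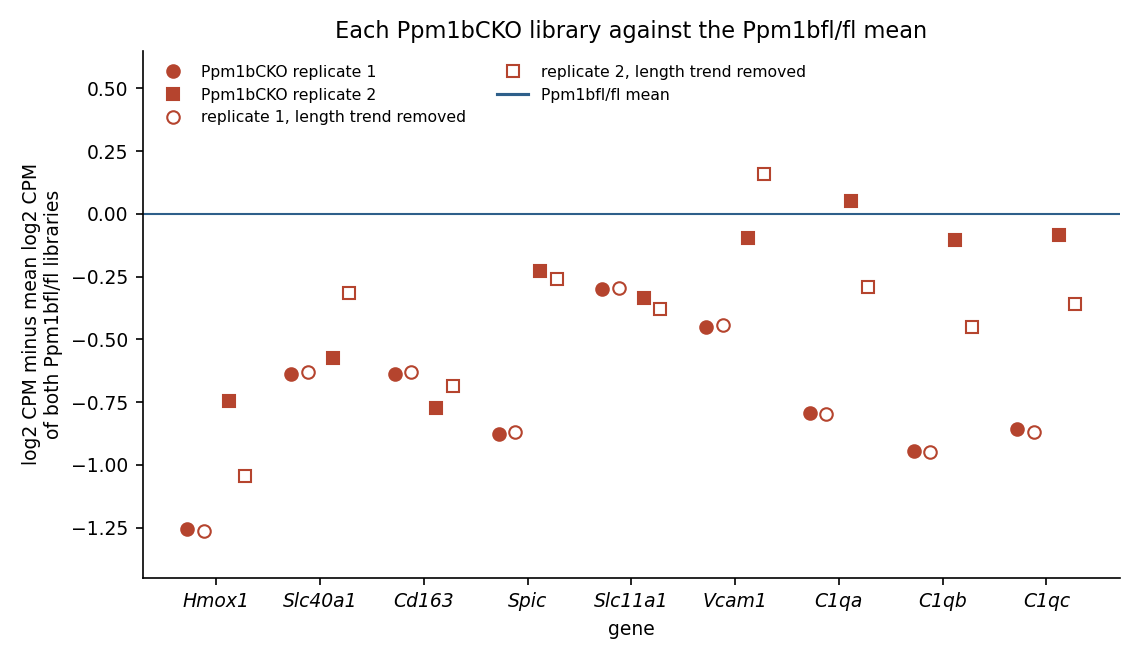
Each Ppm1bCKO library's log2 CPM minus the mean log2 CPM of both Ppm1bfl/fl libraries (0, blue line), before (filled) and after (open) removal of each library's trend with gene length; circles are replicate 1 and squares replicate 2. Removal moved the short C1q genes and Hmox1 down and the long Slc40a1 and Vcam1 up in replicate 2, and left replicate 1 almost in place.

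Hmox1 was the most abundant of the 9 per length. The summed exons of Slc40a1 and Vcam1, 9000 and 8870 bases, are far longer than their longest protein-coding transcripts, 3370 and 3469 bases. Levels were therefore set against that transcript, a scale chosen after seeing the data. Hmox1 averaged 97.6 CPM per kb of transcript over the 4 libraries and was above every other member within each library. Vcam1 (39.7), C1qa (38.7), C1qb (32.5), C1qc (31.3) and Slc40a1 (30.3) followed, and neighbours in this order overlapped over the libraries. Slc11a1 averaged 10.9, Cd163 7.49 and Spic 5.96 CPM per kb. The lowest Slc40a1 value, 23.5, lay above the highest Slc11a1 value, 13. Slc11a1 and Cd163 overlapped, as did Cd163 and Spic. On the deposited exonic lengths Hmox1 again came first, but Vcam1 was the fifth, below the C1q genes.

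**Figure D3:**
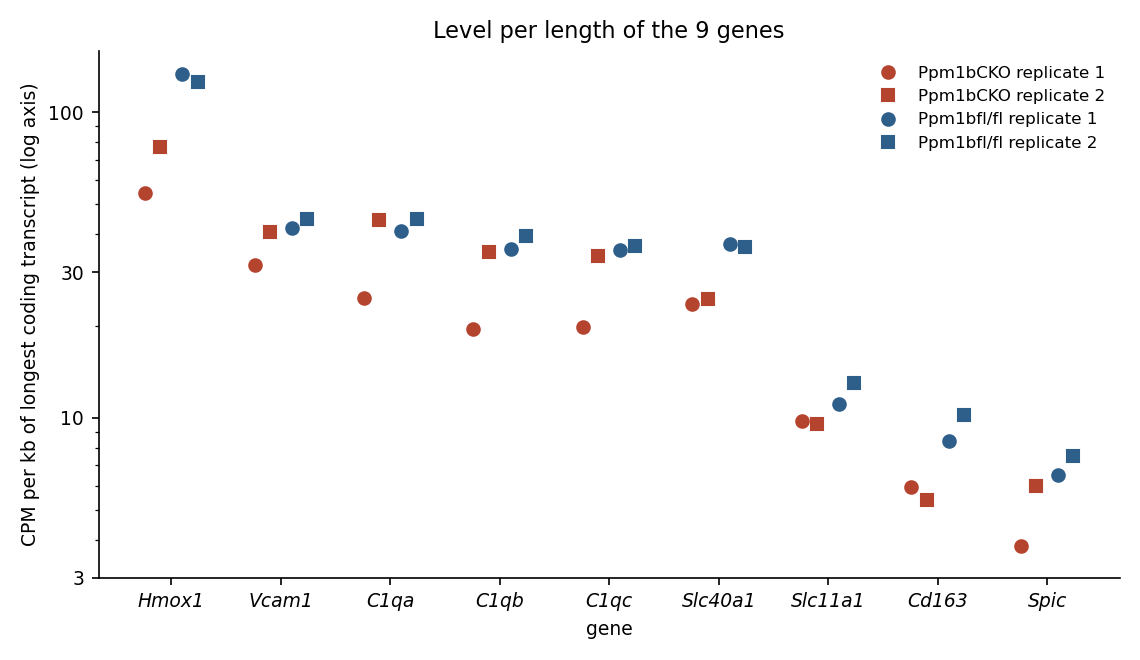
Level of each of the 9 genes as CPM per kb of its longest protein-coding transcript (log axis), in the 4 libraries. Hmox1 led in every library, 5 genes lay together at 19.6 to 44.9 CPM per kb, and Slc11a1, Cd163 and Spic were lower.

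The rest of the iron and haem pathway showed no common direction. The list held 28 other genes of uptake, storage, export and haem transport, 26 of them tested, of which 14 had negative and 12 positive log2 fold changes (median -0.01). None passed the test over all genes in edgeR's main fit or limma-voom, and before adjustment 1 passed 0.05 in edgeR. Of all genes tested 6.44% did, the share beside which such counts in the next lists stand. DESeq2 called 1, Lrp1, and edgeR called 1 with no low-count filter and 1 with the replicate block. Lrp1 encodes a receptor that takes up haem bound to haemopexin. It had 108 and 60.5 CPM in Ppm1bCKO, against 190 and 173 CPM in Ppm1bfl/fl (log2 fold change -1.11 ± 0.26, edgeR adjusted p = 0.266). With the length trend removed its log2 fold change was -0.89. Trf, which encodes transferrin, the iron carrier of plasma, stood at 95.4 and 114 CPM in Ppm1bCKO, against 126 and 133 CPM in Ppm1bfl/fl. Blvra, a biliverdin reductase, which acts just after haem oxygenase, had 31.5 and 48.6 CPM in Ppm1bCKO, against 29.6 and 30.6 CPM in Ppm1bfl/fl. Hmox2, the constitutive haem oxygenase, had 51.8 and 56.1 CPM in Ppm1bCKO, against 46.2 and 44.7 CPM in Ppm1bfl/fl, and neither haem enzyme was called. Fth1 and Ftl1, the ferritin chains that store iron, had log2 fold changes of 0.24 ± 0.23 and 0.34 ± 0.24, and were named after their values were seen.

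Among 15 tested regulators, 8 had a negative and 7 a positive log2 fold change (median -0.07), and edgeR, DESeq2 and limma-voom each called 0, with 2 at an unadjusted p under 0.05 in edgeR. Maf, a transcription factor of macrophages and one of those, had 13.2 and 14.0 CPM in Ppm1bCKO, against 20.2 and 19.0 CPM in Ppm1bfl/fl (log2 fold change -0.53 ± 0.20, edgeR adjusted p = 0.717). Nr1h3, the oxysterol receptor LXRα, and its partner Rxra had log2 fold changes of -0.28 ± 0.29 and -0.22 ± 0.18. Bach1, the repressor of Hmox1 that haem inactivates, stood at 79.4 and 67.8 CPM in Ppm1bCKO, against 79.9 and 75.0 CPM in Ppm1bfl/fl, and Spi1, which encodes PU.1, at 191 and 247 CPM in Ppm1bCKO, against 206 and 200 CPM in Ppm1bfl/fl. Both were named after their values were seen.

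The other complement genes were mixed, with 10 negative and 9 positive of 19 tested (of 24 listed, Masp1 being at 0 in every library) and a median log2 fold change of -0.02. edgeR, DESeq2 and limma-voom each called 0. Before adjustment, 4 passed 0.05 in edgeR, 2 in each direction. Vsig4, a complement receptor of resident macrophages, was scarce, at 0.18 and 0.38 CPM in Ppm1bCKO, against 0.75 and 1.03 CPM in Ppm1bfl/fl. Itgam, the α chain of complement receptor 3 and a marker of many myeloid cells, had 67.1 and 86.8 CPM in Ppm1bCKO, against 55.8 and 52.9 CPM in Ppm1bfl/fl (log2 fold change 0.50 ± 0.18, edgeR adjusted p = 0.717). Cd55, which speeds the decay of complement convertases, had 44.7 and 48.8 CPM in Ppm1bCKO, against 34.8 and 35.8 CPM in Ppm1bfl/fl. C1ra, whose protease product joins C1q in the C1 complex, stood at 8.05 and 5.81 CPM in Ppm1bCKO, against 10.1 and 9.68 CPM in Ppm1bfl/fl, and was named after its values were seen.

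Of 11 tested Vcam1 partners and other adhesion genes of erythroblastic islands, edgeR, DESeq2 and limma-voom each called 0, with 0 at an unadjusted p under 0.05 in edgeR, and the median log2 fold change was -0.07. Itga4, the α4 chain of the integrin that binds VCAM-1, had 317 and 159 CPM in Ppm1bCKO, against 337 and 340 CPM in Ppm1bfl/fl. Only Ppm1bCKO replicate 2, the library with the trend with gene length, was clearly low for it, the other library from the one that was low for Vcam1. With that trend removed, the log2 fold change of Itga4 went from -0.51 to -0.34. Icam2, Sirpa and Epb41 had log2 fold changes of 0.32 ± 0.22, -0.21 ± 0.16 and -0.31 ± 0.23.

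**Figure D4:**
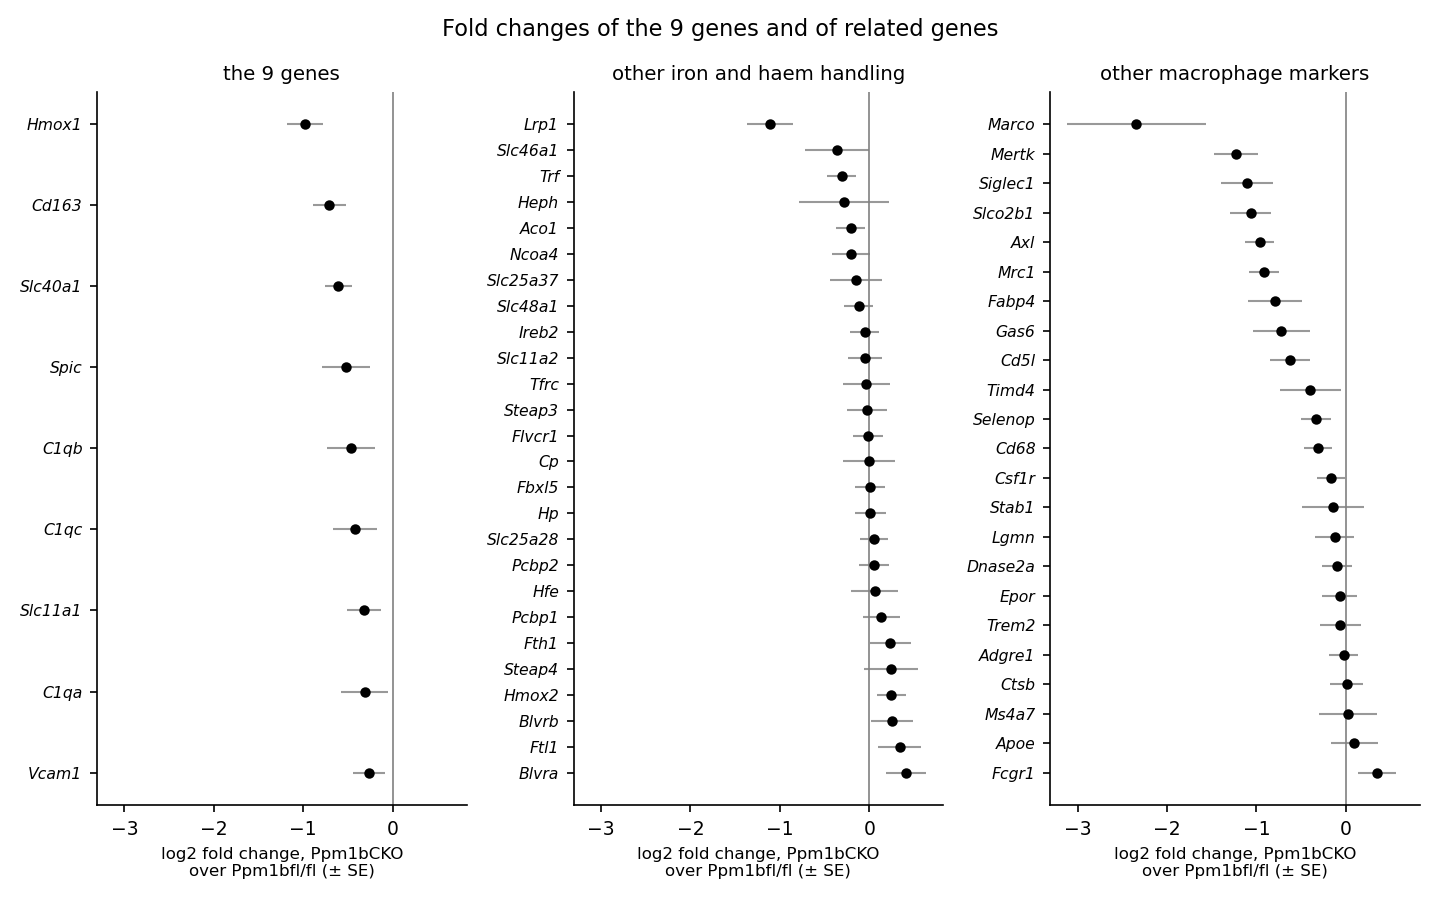
Log2 fold change, Ppm1bCKO over Ppm1bfl/fl, with its standard error (edgeR, 2 libraries per genotype), for the 9 genes, 26 other iron and haem genes and 23 other macrophage markers. The 9 genes lie from -0.98 to -0.26, the iron and haem genes on both sides of 0 and most macrophage markers below it.

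Most other macrophage markers also had negative fold changes, none of them called in edgeR's main fit. Of 23 tested, 19 were negative (median log2 fold change -0.31). edgeR's main fit and limma-voom called 0 of them and DESeq2 5. Before adjustment 8, each of them lower, had an edgeR p under 0.05, as did 3.21% of all genes in that direction. With no low-count filter edgeR called 6, where it called 311 genes in all, and with the replicate block 4, of 207 in all. With the length trend removed it called 1, of 54 in all. Both Ppm1bCKO libraries lay below both Ppm1bfl/fl libraries for 12 of the 23, against 20.6% of all tested genes, and above them for 1. Axl, a receptor for apoptotic cells, had 50.1 and 50.5 CPM in Ppm1bCKO, against 92.8 and 103 CPM in Ppm1bfl/fl (edgeR adjusted p = 0.0672). Mrc1, the mannose receptor, had 38.1 and 33.7 CPM in Ppm1bCKO, against 64.3 and 71.2 CPM in Ppm1bfl/fl (edgeR adjusted p = 0.108). Mertk and the organic anion transporter gene Slco2b1 had log2 fold changes of -1.23 ± 0.24 and -1.07 ± 0.23 (edgeR adjusted p = 0.139 and 0.198). Adgre1, which encodes F4/80, and Csf1r, the receptor for the macrophage growth factor, were named after their values were seen. Adgre1 stood at 43.7 and 45.4 CPM in Ppm1bCKO, against 43.9 and 46.5 CPM in Ppm1bfl/fl. Csf1r stood at 225 and 209 CPM in Ppm1bCKO, against 244 and 243 CPM in Ppm1bfl/fl. Both are also expressed by monocytes. The summed level of this list was 1543 and 1862 CPM in Ppm1bCKO, against 1853 and 1948 CPM in Ppm1bfl/fl, so its libraries overlapped.

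Set against the mean log2 CPM of those 23 markers within each library, most of the 9 genes differed little between genotypes. That mean itself was 4.25 and 4.49 in Ppm1bCKO, against 4.86 and 4.85 in Ppm1bfl/fl. It weights scarce markers like the rest. One is Marco, named after its values were seen, at 0.04 and 0.46 CPM in Ppm1bCKO (log2 fold change -2.34 ± 0.78). Hmox1 was the largest exception, at 2.16 and 2.43 above that mean in Ppm1bCKO, against 2.84 and 2.78 in Ppm1bfl/fl, a difference of -0.51. The difference was -0.22 for Cd163, -0.12 for Slc40a1 and -0.06 for Spic. It lay from -0.04 to 0.12 for the C1q genes, and was 0.17 for Slc11a1 and 0.21 for Vcam1. Set against Adgre1 alone, all 9 were lower on average in Ppm1bCKO, from -0.25 for Vcam1 to -0.98 for Hmox1. Against Csf1r alone all 9 were lower on average too, from -0.11 for Vcam1 to -0.83 for Hmox1. For Vcam1 and the C1q genes that average came from Ppm1bCKO replicate 1. In replicate 2 they lay above both Ppm1bfl/fl libraries against Csf1r, with C1qa at -2.17, against -2.52 and -2.38. Relative to Adgre1, C1qa in replicate 2 was also above both. These are descriptions without a test, and how many macrophages each library held was not measured.

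For markers of the other cell types listed, edgeR's main fit and limma-voom called 0 genes in each list. With no low-count filter edgeR called 2 monocyte, 1 mature neutrophil and 1 stromal or endothelial marker. With the replicate block it called 1 stromal or endothelial marker. Of 12 monocyte markers, 6 were negative (median log2 fold change 0.02), and their sum was 3451 and 2853 CPM in Ppm1bCKO, against 3356 and 3694 CPM in Ppm1bfl/fl. Of these, 4 had an unadjusted p under 0.05 and DESeq2 called 1, Vcan, a matrix proteoglycan (log2 fold change -1.69 ± 0.47, edgeR adjusted p = 0.498). Of 12 mature neutrophil markers, 5 were negative (median 0.02), and their sum was 4780 and 5574 CPM in Ppm1bCKO, against 4779 and 4634 CPM in Ppm1bfl/fl. Retnlg, a secreted neutrophil protein gene, was the 1 with an unadjusted p under 0.05 and the 1 that DESeq2 called (log2 fold change 0.73 ± 0.18, edgeR adjusted p = 0.324). Of 15 stromal and endothelial markers, which bear on Vcam1, 6 were negative (median 0.13), 3 had an unadjusted p under 0.05, each of them higher, and the sum was 883 and 649 CPM in Ppm1bCKO, against 528 and 652 CPM in Ppm1bfl/fl. DESeq2 called 1 of them, Bglap, which encodes the bone protein osteocalcin (log2 fold change 1.65 ± 0.39, edgeR adjusted p = 0.277). Of 13 erythroid markers (Ahsp was not matched), 4 were negative (median 0.18), 0 had an unadjusted p under 0.05 and DESeq2 called 0. Their sum, mostly haemoglobin, was 11822 and 16437 CPM in Ppm1bCKO, against 8020 and 13999 CPM in Ppm1bfl/fl, so the groups overlapped. Of 12 Lsk markers, 10 were negative (median -0.22), 0 had an unadjusted p under 0.05 and DESeq2 called 0. Their sum was 667 and 576 CPM in Ppm1bCKO, against 793 and 633 CPM in Ppm1bfl/fl, so the groups overlapped. Some of these medians changed sign with a library left out. Without Ppm1bfl/fl replicate 1 they were 0.17 for Lsk and -0.19 for erythroid markers. For stromal and endothelial markers the median was -0.06 without Ppm1bCKO replicate 2 and -0.09 without Ppm1bfl/fl replicate 2. With the length trend removed, the medians were 0.05 for monocyte, -0.11 for mature neutrophil and 0.003 for erythroid markers. They were 0.17 for stromal and endothelial, -0.19 for Lsk and -0.41 for the other macrophage markers. No marker of the 5 lists in this paragraph was at 0 in all libraries. The part of these cell types in the levels of the 9 genes was not tested.

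The genes whose pattern over the 4 libraries was nearest to that of the 9 were sought among 11245 others. Likeness was the root mean square difference, over the 4 libraries, between a gene's log2 CPM and the mean of the 9, each centred on its own mean. Among the nearest were Efcab7 (0.05), Prr22 (0.06), C5ar2 (0.07), Bbs12 (0.07) and the growth factor gene Igf1 (0.08), where the median gene was at 0.36. Igf1 had 7.48 and 8.72 CPM in Ppm1bCKO, against 11.2 and 12.7 CPM in Ppm1bfl/fl. C5ar2, a receptor for the complement fragment C5a, had 1.63 and 2.49 CPM in Ppm1bCKO, against 2.74 and 2.88 CPM in Ppm1bfl/fl. None of them was called, at edgeR adjusted p from 0.717 to 0.736. Each of the 9 is part of that mean, which lowers its own distance. Of the 9 themselves, Spic was nearest to their mean, at 0.082, and Hmox1 farthest, at 0.24. The outside genes named here all lay nearer than any of the 9, the farthest being Igf1 at 0.078. They were picked from 11245 for their nearness, so that comparison carries no weight. With 4 libraries, likeness is a description of these samples.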

How the data were processed

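Bulk RNA-seq was compared between 2 libraries labelled Ppm1bCKO and 2 labelled Ppm1bfl/fl. RNA came from TRIzol extraction and libraries from a TruSeq kit, per the labels' protocols. The deposited table holds raw counts per gene. Per the submitters' processing notes, the tools named are featureCounts 2.0.1, HISAT2 2.2.0 and Trim Galore 0.6.7, with build mm10. Those notes give no strand setting and no treatment of multiply mapped reads. Identifiers were matched to GENCODE M21 (55139 of 55399 genes, 54347 with the same version, all 54347 with the same coordinates and exonic length).

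Counts were fitted with edgeR 4.0.16 in R 4.3.3: TMM, filterByExpr (minimum count 10, minimum total 15), robust quasi-likelihood test, no covariates, Benjamini-Hochberg over 16393 genes, threshold 0.05. The biological coefficient of variation was 19.1%. Replicates differed beyond sampling noise (chi-square per degree of freedom 53.5 in Ppm1bCKO, 25.5 in Ppm1bfl/fl). A count of 0 allows up to 3 counts, 0.0998 to 0.134 CPM, for counting error only. On simulated counts of 16393 genes for this comparison, 53 of 100 changes of 2-fold and 99 of 100 of 4-fold were recovered, with 6 false calls. The simulation gave all genes the same coefficient of variation and no trend with gene length. Its changes were placed only in genes with ample counts, so these rates may not hold for the real libraries.

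The 9 genes and the 10 other lists were chosen with earlier results of these data known. Named genes were the 9, Ppm1b, Kit, Ly6a, up to 4 genes of each other list by smallest p, and the 6 nearest in pattern with an average log2 CPM of at least 1; any other is said to be named after its values were seen, apart from Ephb2, Zbtb40 and Gm43109, named for their position. Some genes that this rule selects are not reported here. Alternatives were DESeq2 size factors, DESeq2 1.42.0, limma-voom (limma 3.58.1), no low-count filter, CPM of at least 1 in 2 libraries, no immunoglobulin genes, the replicate block, each library left out, and, added after seeing the data, removal, per library, of the trend of log2 CPM with exonic length (lowess, span 0.3), and transcript length for levels per kb.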

Additional observations from a re-analysis of the deposited data

How the results depend on the processing

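Over the 8 alternatives other than leaving out a library, all 72 fold changes of the 9 genes stayed negative and 71 moved by less than the spread between replicates. The exception was Slc40a1 with the length trend removed (-0.46). Leaving out 1 library at a time, log2 fold changes ranged from -1.26 to -0.75 for Hmox1, -0.64 to -0.58 for Slc40a1, -0.85 to -0.57 for Cd163, -0.44 to -0.20 for Slc11a1, -0.88 to -0.24 for Spic, -0.45 to -0.10 for Vcam1, -0.80 to 0.050 for C1qa, -0.95 to -0.11 for C1qb and -0.86 to -0.088 for C1qc, and their median from -0.80 to -0.24. For Spic, Vcam1 and the C1q genes the values nearest 0 came without Ppm1bCKO replicate 1, and the most negative without Ppm1bCKO replicate 2. In those fits the lone library is assumed to vary like the other genotype.

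The count of genes called, 61 (10 higher, 51 lower), was 199 by DESeq2 (67, 132), 311 without a low-count filter (130, 181) and 0 by edgeR without immunoglobulin genes (0, 0), where 989 genes had an unadjusted p under 0.05. The 9 genes' median was -0.47 there too. It ranged from 94 to 3336 with a library left out (31 to 1753 higher, 63 to 1583 lower), at 3336 without Ppm1bCKO replicate 1, 94 without Ppm1bCKO replicate 2, 145 without Ppm1bfl/fl replicate 1 and 214 without Ppm1bfl/fl replicate 2. With the replicate block it was 207 (71, 136). The correlation of same-numbered libraries' deviations was 0.06 and the labels do not pair the numbers, so they share only a number. With exonic instead of transcript length, Vcam1, C1qa, C1qb and C1qc changed places by level per kb.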
